A study of Mus musculus with 15 samples.

Results

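A set of 8 genes of Schwann cells and of the myelin they make, Mbp, Pmp22, Prx, Mag, Sox10, S100b, Mal and Cnp, were followed in skeletal muscle RNA. They were taken by name from 2 deposited tables joined on gene identifier, and all 8 of 8 were found among 55536 genes and passed the filter on low values. The study compared whole muscle of 15 male mice aged 2 months in 3 groups of 5. Controls were labelled wild type. Knockout mice were labelled PdgfrB Knock Out and D489V mice carried the constitutively active form PdgfrB D489V, both alleles being specific to myogenin according to the design text. Myogenin is a transcription factor of the muscle lineage, so neither allele was aimed at Schwann cells. The labels name no Cre line, strain, muscle or litter, and do not say whether the controls carried a Cre.

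Schwann cells are the glia of peripheral nerve and reach skeletal muscle with the motor and sensory axons. Myelinating Schwann cells wrap one axon segment in a compacted spiral of membrane held together by a small set of abundant proteins, while non-myelinating and terminal Schwann cells ensheathe thin axons and cap the neuromuscular junction. SOX10 is the transcription factor that sets Schwann cell identity, and with EGR2 it drives the myelin genes. Most of these genes are far more active in Schwann cells than in muscle fibres, though Pmp22, Mal and Cnp are also made elsewhere. In bulk samples of this kind fewer Schwann cells and less RNA per cell cannot be told apart.

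Each sample summed to between 29815559 and 36489777 normalized counts, and the read depth behind them is unknown. Muscle fibre genes were abundant in every sample, with Acta1 at 939485 to 1400228. Of 7 genes made by oligodendrocytes, the myelinating cells of the brain, 6 stayed below 10 in all 15 samples and Opalin, Olig2 and Ermn were listed at 0 throughout. Pdgfrb itself was at 1673 to 1848 in controls, 958 to 1628 in knockout and 820 to 1062 in D489V. A pair of libraries stood apart. D489V replicate 3 was the highest of all samples for 7 of the 8 genes and equalled the highest for S100b, and knockout replicate 3, although its label says male, had Xist at 3165, where no other sample exceeded 101. The group comparisons of the 8 genes are therefore given with and without them. For spreads, correlations and closest genes, only D489V replicate 3 was left out.

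Promoters of 6 of the 8 genes, 250 bases before to 50 after a transcription start, were taken from RefSeq on GRCm38.p6, in 11 windows. Those of 4 genes are printed, 1 window each. Of these, Pmp22, Prx and Mag are myelin genes that varied together across the samples below, while Cnp did so less. Mal varied with them too but its window is not printed. Capitals mark matches on either strand to the SOX core ACAAAG or to the EGR site GCGNGGGNG, motifs that did not overlap here.
Pmp22 promoter, chr11:63128732-63129031, plus strand: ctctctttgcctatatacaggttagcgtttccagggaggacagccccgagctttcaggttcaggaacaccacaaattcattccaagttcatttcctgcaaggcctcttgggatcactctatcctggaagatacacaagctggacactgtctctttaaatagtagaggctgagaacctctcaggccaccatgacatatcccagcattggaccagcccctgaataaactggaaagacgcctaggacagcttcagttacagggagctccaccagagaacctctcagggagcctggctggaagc
Prx promoter, chr7:27499074-27499373, plus strand: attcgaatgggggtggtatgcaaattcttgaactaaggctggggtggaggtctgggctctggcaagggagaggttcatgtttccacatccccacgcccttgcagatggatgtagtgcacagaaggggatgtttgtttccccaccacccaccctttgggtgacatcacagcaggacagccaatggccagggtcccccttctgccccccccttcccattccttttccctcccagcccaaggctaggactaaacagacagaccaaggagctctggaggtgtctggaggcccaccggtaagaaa
Mag promoter, chr7:30914814-30915113, minus strand: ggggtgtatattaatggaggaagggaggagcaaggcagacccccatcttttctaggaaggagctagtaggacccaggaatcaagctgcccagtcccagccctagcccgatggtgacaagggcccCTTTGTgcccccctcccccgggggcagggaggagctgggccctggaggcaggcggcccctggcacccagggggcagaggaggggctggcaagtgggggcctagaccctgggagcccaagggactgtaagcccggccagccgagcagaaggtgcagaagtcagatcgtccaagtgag
Cnp promoter, chr11:100574689-100574988, plus strand: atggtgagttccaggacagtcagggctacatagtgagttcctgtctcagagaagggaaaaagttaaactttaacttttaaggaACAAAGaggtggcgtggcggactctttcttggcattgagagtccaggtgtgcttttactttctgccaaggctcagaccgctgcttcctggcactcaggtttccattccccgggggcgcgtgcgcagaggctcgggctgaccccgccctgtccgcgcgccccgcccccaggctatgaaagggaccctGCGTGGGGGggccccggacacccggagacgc
The SOX core was found in the Mag window, as its reverse complement 126 bases before the start, and in the Cnp window 167 bases before the start. The Cnp window also held the EGR site at base 20 after the start. Of the 11 windows, 3 held the SOX core and 1 the EGR site, against 18.7% and 12.3% of all 32851 promoters in the same table. The SOX core of Mag was counted in 2 overlapping windows, so the 3 windows hold sites of 2 genes. The other windows, among them those of Mal and S100b and a further one of Mag, held neither motif. These matches describe the letters of the windows only.

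The structural genes of myelin come first. Mbp (ENSMUSG00000041607, chromosome 18, 82475146 to 82585637, plus strand) encodes myelin basic protein, which seals the cytoplasmic faces of the membrane. Its normalized count in controls 1 to 5 was 1919, 1869, 1270, 2072 and 1716. In knockout 1 to 5 it was 1116, 978, 1042, 1509 and 1409, and in D489V 1 to 5 it was 1901, 2300, 7343, 1845 and 1721. All knockout samples but 2 lay below every control, and every D489V sample lay above every knockout sample.

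Pmp22 (ENSMUSG00000018217, chromosome 11, 63128982 to 63159547, plus strand) encodes a tetraspan membrane protein whose duplication causes Charcot-Marie-Tooth disease type 1A in people. Controls held 3093, 2897, 2257, 3211 and 2489 normalized counts, knockout samples 1818, 1771, 1480, 2390 and 2226, and D489V samples 2786, 3151, 9796, 2843 and 2705. Control replicate 3 was the lowest control for both genes, and knockout replicates 4 and 5 were the highest of their group.

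Prx (ENSMUSG00000053198, chromosome 7, 27499324 to 27520214, plus strand) encodes periaxin, a scaffold that ties the myelin sheath to the basal lamina. It held 1173, 1104, 914, 1446 and 1245 in controls, 692, 695, 653, 1007 and 818 in knockout, and 1297, 1401, 4308, 1099 and 1151 in D489V. Knockout 4, at 1007, was the only knockout sample above the lowest control.

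Mal (ENSMUSG00000027375, chromosome 2, 127633226 to 127656695, minus strand) encodes a proteolipid of membrane rafts involved in sorting to myelin. It held 317, 327, 212, 375 and 280 in controls, 181, 188, 153, 239 and 224 in knockout, and 247, 338, 1100, 306 and 312 in D489V. Again the knockout samples lay below the D489V samples with no overlap.

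Mag (ENSMUSG00000036634, chromosome 7, 30899176 to 30914873, minus strand) encodes the adhesion protein that faces the axon. It was the least abundant structural member, at 130, 98, 97, 139 and 95 in controls, 60, 81, 68, 101 and 81 in knockout, and 97, 128, 352, 91 and 87 in D489V. Its knockout and D489V values overlapped.

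Cnp (ENSMUSG00000006782, chromosome 11, 100574904 to 100591729, plus strand) encodes an enzyme of the myelin cytoplasm that many other cells also make. It held 668, 556, 488, 553 and 733 in controls, 479, 474, 527, 735 and 542 in knockout, and 553, 632, 1212, 590 and 553 in D489V. Apart from D489V 3, the groups lay over each other. An exon of Cnp overlaps one of Dnajc7 on the opposite strand, and the strand setting of the counting is not given in the sources used here, so some reads may belong to Dnajc7. Prx shares an exon overlap of this kind with Gm15541, whose mean was 5.4.

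The remaining members mark Schwann cell identity. Sox10 (ENSMUSG00000033006, chromosome 15, 79154908 to 79165240, minus strand) held 214, 182, 133, 140 and 99 normalized counts in controls, 92, 83, 150, 134 and 148 in knockout, and 248, 235, 481, 169 and 231 in D489V. Every D489V sample lay above every knockout sample, and 4 of 5 lay above every control.

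S100b (ENSMUSG00000033208, chromosome 10, 76253853 to 76261159, plus strand) encodes a calcium-binding protein used as a Schwann cell marker in nerve and terminal Schwann cells. Adipocytes are known to make it too. It held 289, 233, 125, 76 and 91 in controls, 87, 117, 80, 69 and 68 in knockout, and 218, 172, 289, 135 and 137 in D489V. Controls 1 and 2 were far above controls 4 and 5, and the highest control was equal to D489V 3.

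**Figure D1:**
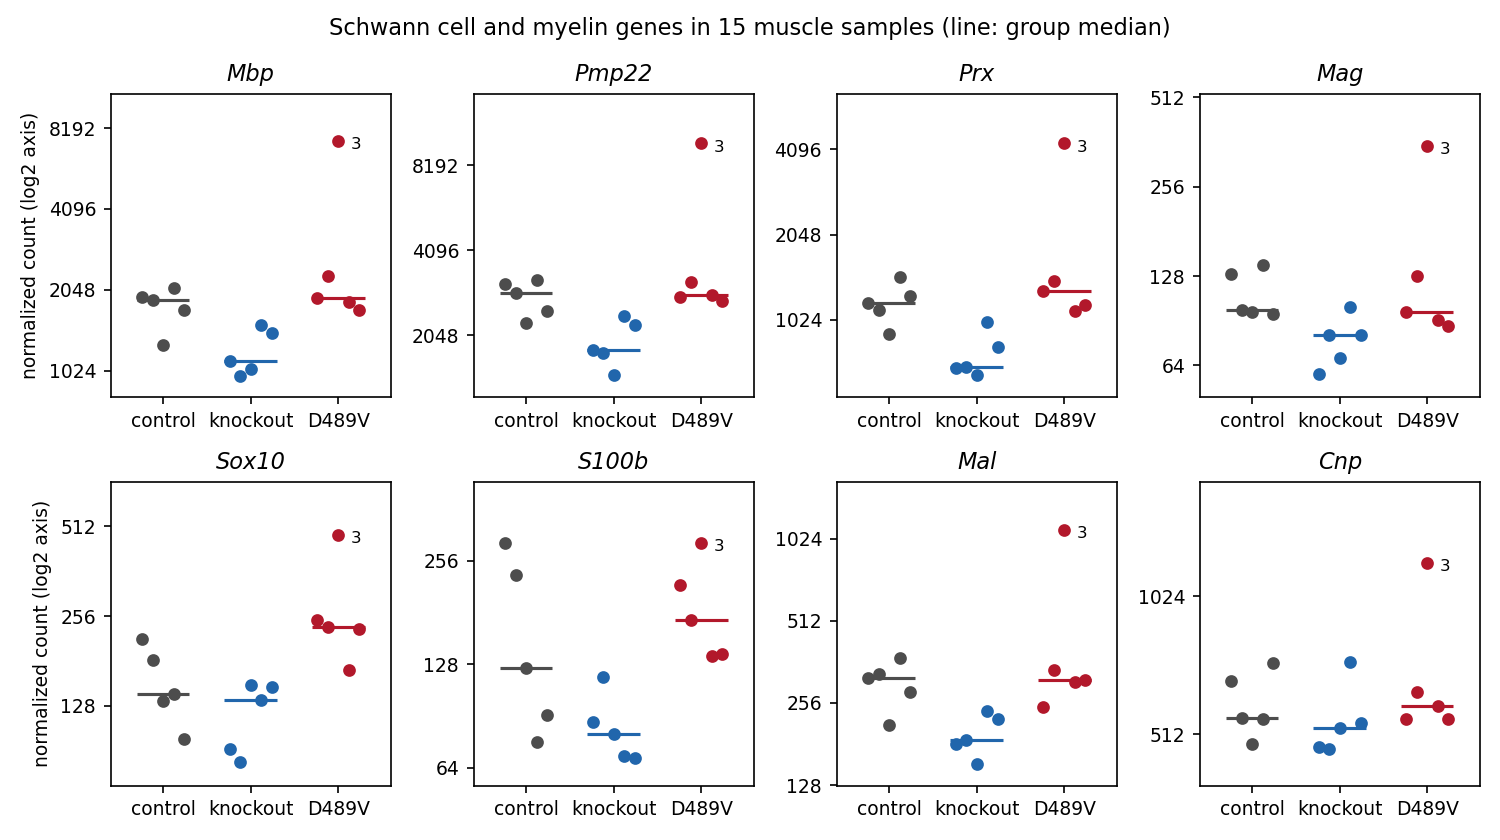
Normalized counts of the 8 genes (vertical axes, log2 scale, a separate range for each gene) in control, knockout and D489V muscle. Each point is 1 of 15 samples, in order of replicate number from left to right, and the line is the group median; the point marked 3 is D489V replicate 3, at 7343 for Mbp and 9796 for Pmp22, above every other sample for 7 of the 8 genes.

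Divided by the summed exon length of each gene, control levels ordered the 8 genes from Pmp22, at 1185 normalized counts per kilobase, through Prx (211), Mbp (209), Cnp (165), S100b (110), Mal (109) and Sox10 (50.3) to Mag (27.5). In this order, neighbours from Prx to Mal overlapped between control samples, as did Sox10 and Mag. The exon length joins all annotated transcripts, which for Mbp come to 8469 bases and include exons outside the myelin form, so its level per kilobase is a low estimate.

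D489V replicate 3 was then set beside the median of D489V 1, 2, 4 and 5. Mbp was 3.92 times that median, Mag 3.74, Mal 3.56, Prx 3.52 and Pmp22 3.48 times. Cnp (2.12), Sox10 (2.06) and S100b (1.87) were raised less in the same library. Among 19 further myelin and Schwann membrane genes, 14 were also at their highest of 15 samples there, led by Ugt8a at 4.78 times, the enzyme that makes the galactolipid of myelin. Pllp, a proteolipid of myelin, was 4.27 times the median and Fa2h, a lipid hydroxylase, 4.06 times. Over all 15149 genes with a ratio, D489V 3 was the highest sample for 9.96%. Among receptors and signals it was the highest sample for 9 of 18 genes, with ratios from 0.810 to 2.93 and a median of 1.40, and among 5 transcription factors for 0, with ratios from 0.643 to 1.41. Among 4 axonal genes with a ratio, Prph, an intermediate filament of peripheral neurons, was 3.43 times the median at 185 normalized counts. Uchl1 was 3.05 times the median, Stmn2 1.54 times and Nefh 1.19 times. The slow fibre genes Myh7 and Tnnt1 were 4.25 and 4.69 times it. Myh7 was not extreme over the series, at 93311 in this library and 94986 in knockout 3. Adipocyte genes were lower in this library, with a list median of 0.325 times and Adipoq at 1294 against a median of 4234. The part of these other tissues in the myelin values was not tested.

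**Figure D2:**
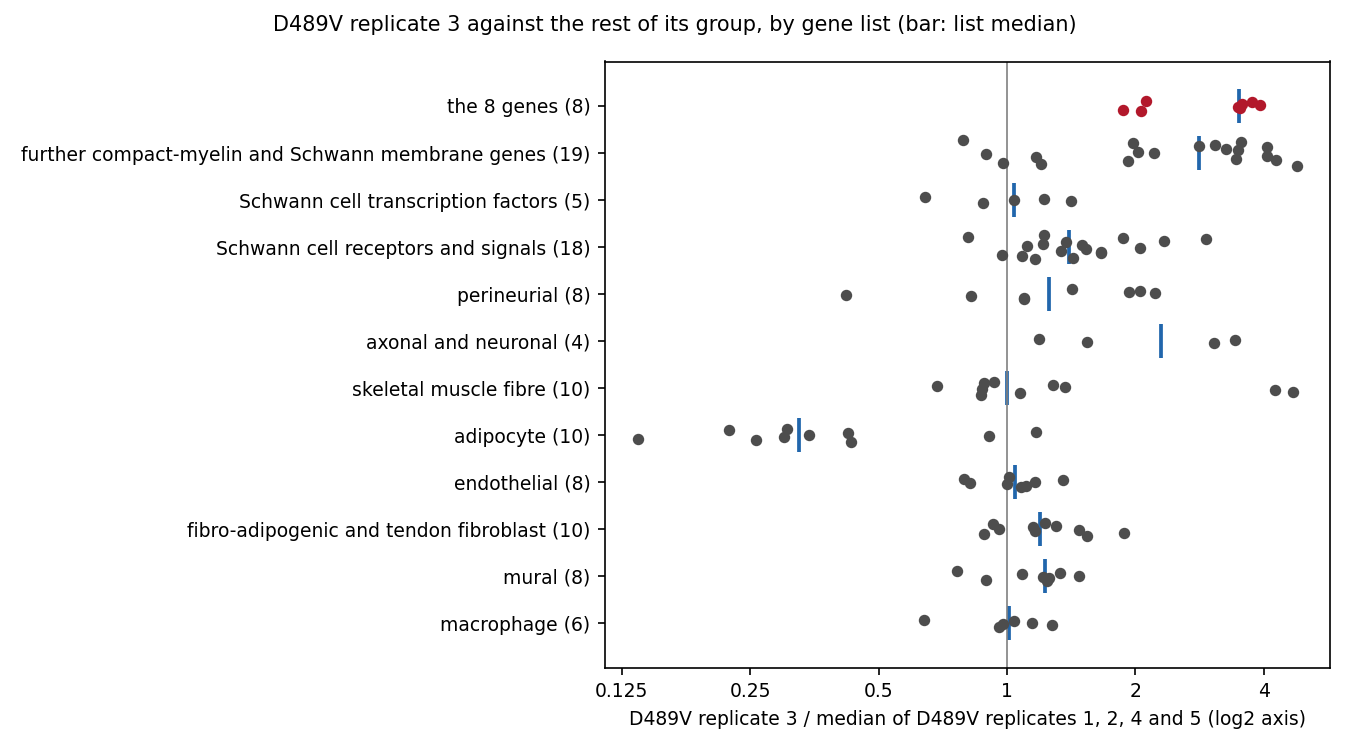
Value in D489V replicate 3 divided by the median of the other D489V samples (horizontal axis, log2 scale), 1 point per gene with a median of 10 or more, by gene list with the number of genes in brackets; the bar is the list median. The 8 genes lie between 1.87 and 3.92, endothelial genes between 0.794 and 1.35, and most adipocyte genes below 1.

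The group labelled knockout was compared with control first. Whole muscle Pdgfrb, given above, overlapped between knockout and D489V and does not show its state in the targeted cells. No member passed the threshold, a limma p adjusted over all 15234 genes under 0.05, which 0.00656% of those genes passed (1 gene). All 8 had a lower mean log2 level in knockout, with a median change of -0.54 on the log2 scale against 0.01 over all genes tested, and 6 of them had an unadjusted p under 0.05, as had 2296 of the 15234 genes tested. For Prx the log2 change was -0.61 ± 0.15 (SE, limma adjusted p 0.243). Mbp had one of -0.55 ± 0.16 (SE, limma adjusted p 0.285) and Mal one of -0.61 ± 0.17 (SE, limma adjusted p 0.281). Cnp and Sox10 were nearest to 0, at -0.12 and -0.33, with 95% intervals of -0.44 to 0.20 and -0.85 to 0.19. The groups overlapped for each of the 8 genes, while they did not overlap for 2.24% of all genes (1.25% lower in knockout). Without knockout replicate 3 the median change was -0.48, with 0 members past the threshold. Endothelial genes moved with them: 8 of 8 were below 0 with an unadjusted p under 0.05 and none past the threshold, with a median of -0.59, no overlap for 4 of them, and summed counts of 9337 to 14934 in knockout against 15660 to 22644 in controls. Other lists leaned lower too, with none past the threshold. Below 0 were 7 of 8 mural genes (5 with an unadjusted p under 0.05), 7 of 8 nerve sheath (perineurial) and 7 of 10 adipocyte genes. So were 10 of 10 fibro-adipogenic and tendon genes, or 6 of 10 without knockout replicate 3. Muscle fibre genes split 5 to 5, and 4 of 6 macrophage genes were below 0. The 3 lymph node genes tested were above 0. The part of these lists, endothelial genes included, in the nerve gene values was not tested.

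Against control, D489V muscle had no member past the threshold either, where 0.0587% of 15339 genes passed (0.0261% as higher and 0.0326% as lower in D489V). All 8 changes were above 0, with a median of 0.40 on the log2 scale against 0.0019 over all genes. This depended on 1 library: without D489V replicate 3 the median was 0.07, and Mag and Cnp were at -0.15 and -0.030. Mbp moved from 0.53 to 0.15, Pmp22 from 0.41 to 0.05 and Mal from 0.38 to 0.01. Sox10 kept a log2 change of 0.55 ± 0.22 (SE, limma adjusted p 0.442) without that library, from 0.78 ± 0.27 (SE, limma adjusted p 0.38) with it. Adipocyte genes moved the same way, with 10 of 10 above 0, none past the threshold and a median of 1.72, or 2.18 without that library, and their part, S100b included, was not tested. The groups overlapped for all 8 genes, and did not for 2.16% of all genes, 1.1% higher and 1.06% lower in D489V.

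The mutant groups were compared directly, which the identical control columns of both tables allow. Here 5 of the 8 genes were lower in knockout than in D489V (Mbp, Pmp22, Prx, Sox10 and S100b) and none higher, where 20.8% of 15299 genes passed and 10.3% passed as lower in knockout. S100b differed by -1.13 ± 0.23 on the log2 scale (SE, limma adjusted p 0.00823), from a mean of 190 ± 64.7 (SD, n = 5) in D489V to 84.2 ± 20 (SD, n = 5) in knockout. Sox10 differed by -1.11 ± 0.26 (SE, limma adjusted p 0.0152), Prx by -1.05 ± 0.32 (SE, limma adjusted p 0.0357), Mbp by -1.08 ± 0.34 (SE, limma adjusted p 0.0406) and Pmp22 by -0.94 ± 0.31 (SE, limma adjusted p 0.0493). Mal was just outside the threshold, at -0.99 ± 0.33 (SE, limma adjusted p 0.052). Mag and Cnp had log2 differences of -0.73 and -0.31, with 95% intervals of -1.46 to 0.0042 and -0.76 to 0.15. The groups did not overlap for 6 of the 8 genes, all lower in knockout, against 6.7% of all genes in that direction and 7.22% in the opposite one.

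Leaving out D489V replicate 3 made these differences smaller and their errors smaller still. The median over the 8 genes went from -1.02 to -0.65, and 6 genes were then called, Mal included (-0.62 ± 0.15, SE, limma adjusted p 0.0248), where 13.2% of all genes passed. Mbp was at -0.69 ± 0.14 (SE, limma adjusted p 0.0116) and Prx at -0.69 ± 0.13 (SE, limma adjusted p 0.00941). Without knockout replicate 3, where 15% of all genes passed, only Sox10 and S100b did so, although the median difference of the 8 genes was -0.95. Mbp was then at an adjusted p of 0.0762, Pmp22 at 0.0974 and Prx at 0.0692 in limma. With both libraries left out, 6 genes passed, where 10.6% of all genes did, and the median was -0.58. The calls of Mbp, Pmp22 and Prx were also lost without knockout 1, 2 or 5, or without D489V 1 or 2, and that of Pmp22 also without knockout 4.

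**Figure D3:**
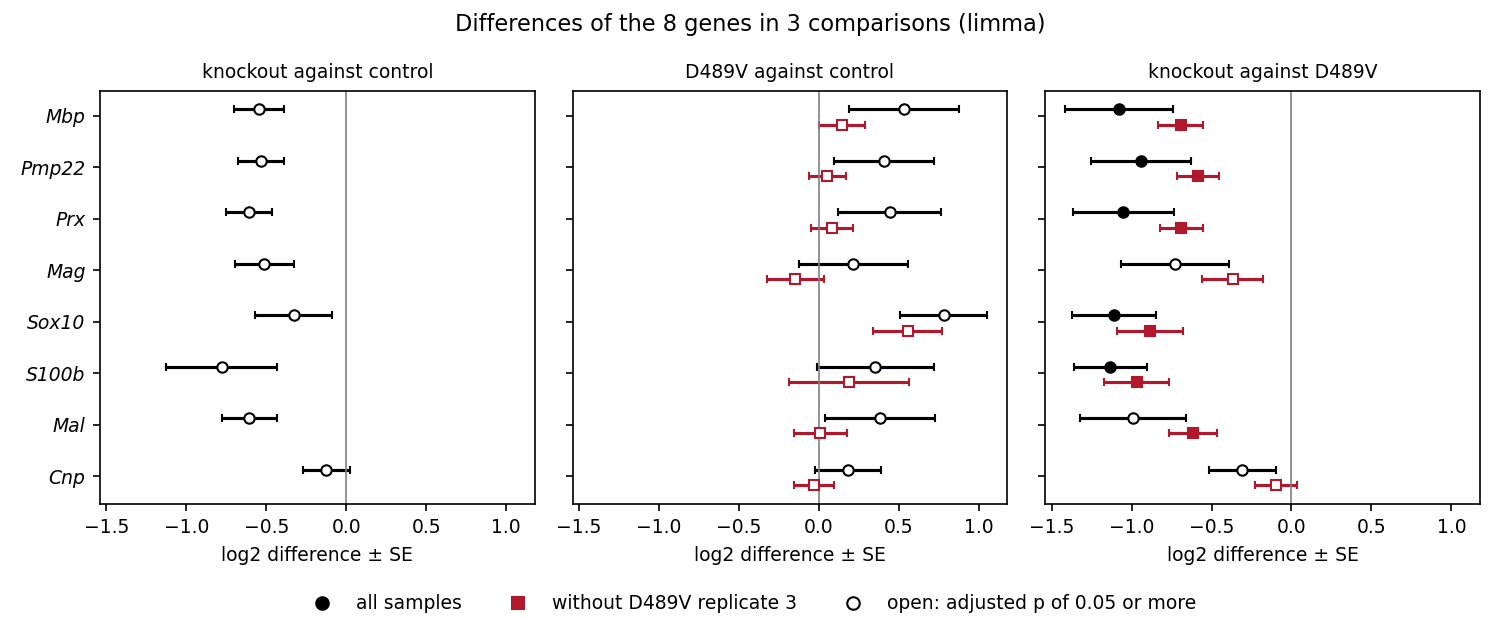
Log2 differences of the 8 genes (horizontal axis) with standard errors in 3 comparisons, from limma, with all samples (black circles) and without D489V replicate 3 (red squares); filled symbols have an adjusted p under 0.05. All 8 genes lie below 0 in knockout against control and against D489V, and the D489V values against control move towards 0 without that replicate.

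Other cell types also differed between knockout and D489V. Of 8 endothelial genes, 8 were lower in knockout, with summed counts of 9337 to 14934 in knockout and 17526 to 20728 in D489V. Of 10 adipocyte genes, 7 were lower, among them Cfd by -2.31 ± 0.27 and Adrb3 by -2.73 ± 0.43 on the log2 scale (SE). Their summed counts were 41182 to 107270 and 102290 to 145179, most of it Car3, a gene also abundant in muscle that did not pass the threshold. No marker of either list was at 0 in any sample. With both doubted libraries left out, 5 endothelial and 8 adipocyte genes were lower, where 10.6% of all genes were called. With all samples, 20.8% of all genes were called, 10.3% as lower in knockout. Of 8 mural genes, 3 were lower in that fit and 1, Abcc9, was higher, and macrophage genes gave 0 calls of 6. The part of blood vessels and fat in the nerve gene differences was not tested, and S100b in particular is a gene that fat shares.

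The wider myelin and Schwann lists were then counted in the same fits. Against control, 0 of 19 myelin and membrane genes passed in either mutant, with medians of -0.37 in knockout and 0.43 in D489V on the log2 scale. Without knockout replicate 3 the knockout median was -0.32, and without D489V replicate 3 the D489V median was 0.12. In knockout against D489V, where 20.8% of all genes passed, 7 of these 19 did, all lower in knockout. Among them were Ncmap (-1.24), Cldn19 (-1.05) and Drp2 (-1.02). Ncmap is a glycoprotein of peripheral myelin, Cldn19 forms the tight junctions of the sheath, and Drp2 binds periaxin at the outer membrane. Without D489V replicate 3 the number was also 7 (13.2% of all genes passed), without knockout replicate 3 it was 4 (15% of all genes), and without both it was 5 (10.6% of all genes).

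Among 10 Schwann cell transcription factors only 4 passed the filter, and Foxd3 was listed at 0 in all samples. Egr2, the partner of Sox10, held 1 to 18 normalized counts and was not tested. Of the 4, Pou3f1 (-0.93), Nab2 (-0.68) and Zeb2 (-0.47) were called as lower in knockout than in D489V, as were 10.3% of all genes. Nab2, a cofactor of EGR proteins that other cells also make, held 370 to 421 in all controls but control 3, at 282, and 222 to 270 in knockout, with no overlap (log2 change -0.58 ± 0.12, SE, limma adjusted p 0.227). Against control, 1.25% of all genes were lower in knockout with no overlap.

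In knockout against D489V, where 10.3% of all genes passed as lower, 6 of 18 tested receptors and signals did so and none as higher. They included Scn7a (-1.06), a sodium channel of non-myelinating Schwann cells, Itgb4 (-0.91), the laminin receptor subunit of the outer Schwann membrane, Kcna1 (-0.78), Adgrg6 (-0.74), the adhesion receptor needed to start myelination, and Erbb2 (-0.59). Without D489V replicate 3 this number was 4 (13.2% of all genes called), and without knockout replicate 3 it was 6 (15% of all genes). Without both doubted libraries it was 2, a share near the 10.6% of all genes called in that fit. Of 8 perineurial genes, which mark the sheath around nerve bundles and also include Itgb4, 4 were lower, with Mpzl2 at -1.68, Slc6a13 at -0.99 and Cldn1 at -0.97. In the same fits as for the receptors, 4 were lower without D489V replicate 3, 5 without knockout replicate 3 and 2 without both. Of 4 tested axonal genes, 1 was called and it was higher in knockout: Nefh, the heavy neurofilament subunit, at 49 to 98 in knockout against 19 to 30 in D489V (log2 difference 1.51 ± 0.23, SE, limma adjusted p 0.00309). In controls Nefh held 24 to 62. Prph, Stmn2 and Uchl1 did not pass, with log2 differences between knockout and D489V of -0.33, -0.20 and 0.32. The axonal list held 10 genes, and those not tested were too low for the filter. Among them were the other neurofilament genes, Nefl at 0 to 6 and Nefm at 1 to 12 normalized counts.

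The spread of each gene over the 15 samples was set beside that without D489V replicate 3. The SD of log2 Mbp was 0.69 with that library and 0.39 without it, and that of Pmp22 was 0.61 and 0.34. Cnp had the narrowest spread, at 0.34 and 0.21. S100b had the widest, at 0.73 and 0.68, so its spread rested least on that library. Without it the highest sample was 4.25 times the lowest for S100b, 2.99 times for Sox10, 2.35 times for Mbp and 1.55 times for Cnp.

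Correlations between the 8 genes were computed on log2(value + 1) across the 15 samples and are given as a description, since the samples share group differences and 1 extreme library. With the mean of the other 7, Mbp had a Pearson r of 0.98 (Spearman rho 0.95), Pmp22 0.98 (0.93), Prx 0.97 (0.88), Mal 0.96 (0.89) and Mag 0.94 (0.77). Sox10 (0.82, rho 0.70), Cnp (0.82, rho 0.66) and S100b (0.61, rho 0.65) were looser. Without D489V replicate 3, Mbp kept 0.96 and Pmp22 0.95, while Cnp and S100b came to 0.49 each. With group means also removed, Mbp was at 0.91, Pmp22 at 0.88, Prx at 0.78, Mag and Mal at 0.75, Cnp at 0.55, Sox10 at 0.40 and S100b at -0.044. Mbp, Pmp22, Prx, Mag and Mal therefore varied together within the groups, while S100b showed no such relation.

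**Figure D4:**
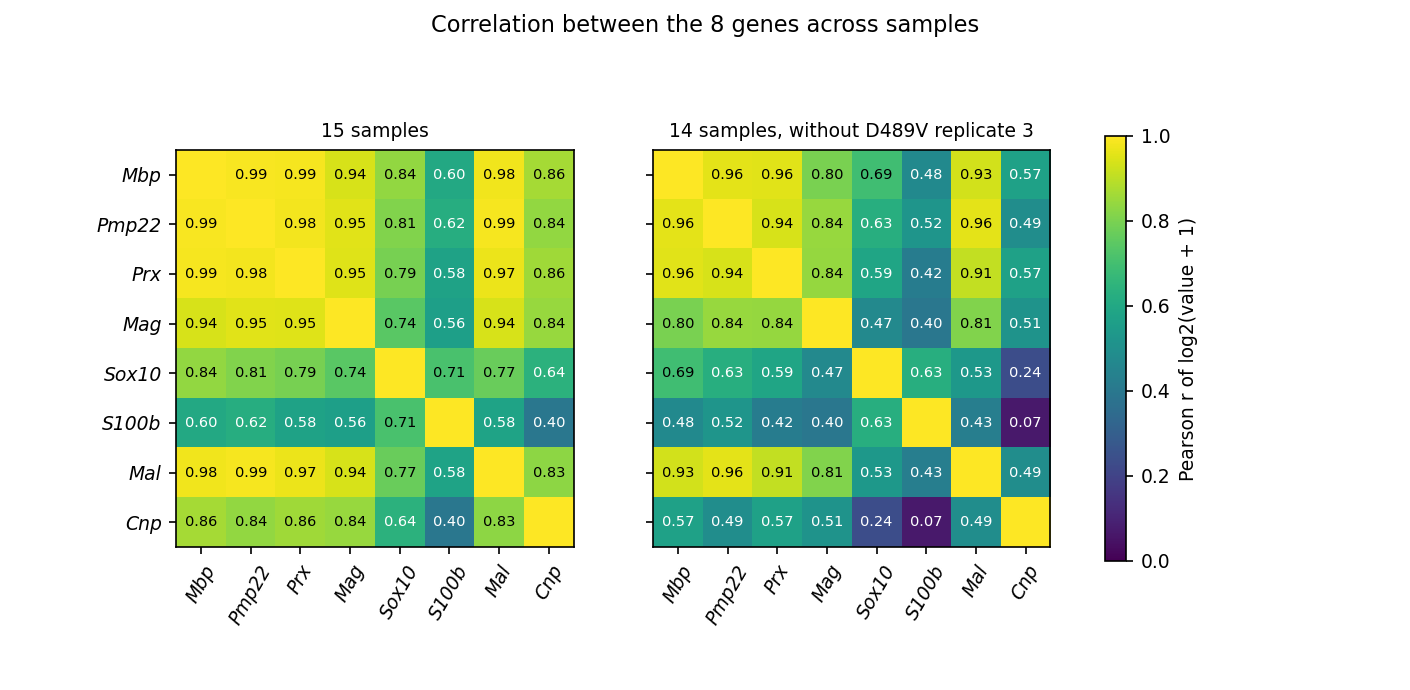
Pearson correlation of log2(value + 1) between each pair of the 8 genes (rows and columns) over 15 samples (left) and over 14 samples without D489V replicate 3 (right), by colour and printed value. Mbp with Pmp22 is at 0.99 and 0.96, and S100b with Cnp at 0.40 and 0.07.

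Among 15807 genes, the closest 12 non-members to the mean z-score of the 8 over 15 samples included Pllp (r 0.97), Cldn19 (0.97), Dusp15 (0.96), Ncmap (0.95), Kif19a (0.95), Cadm4 (0.95), Plekha4 (0.95), Fam178b (0.94), Sptbn5 (0.93), Kif1a (0.93) and Drp2 (0.93). Of these, Pllp, Cldn19, Ncmap, Cadm4 and Drp2 stood in the myelin list, and the others named stood in no list used here. Without D489V replicate 3, 4 of the 12 remained among the closest 12, Pllp (0.92), Cldn19 (0.91) and Ncmap (0.91) among them.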

How the data were processed

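Poly(A) RNA of 15 muscle samples was sequenced as directional libraries, per the labels' protocols. The submitters' processing notes name Trim Galore 0.6.0, cutadapt, FastQC, STAR 2.7.0e, DESeq2 1.26.0 and GRCm38; the counting tool and its strand setting are not given in the sources used here. Values were treated as a score, since the authors deposited normalized, whole-number values per gene, so no count test was run and the read depth is unknown. Both tables held identical control columns, and median ratios to the geometric mean over samples lay between 1.0069 and 1.0097. All 55536 identifiers matched GENCODE M21. Only the 2 groups compared entered each fit. Genes reaching 10 in 5 samples were fitted on log2(value + 1) with limma 3.58.1 in R 4.3.3 (trend, two-sided). Calls were made where the p after Benjamini-Hochberg adjustment was under 0.05. A check on simulated data, with noise independent between genes and samples, set a limit only on the median size of the estimated changes. A fold change on this scale understates changes of low genes. The labels do not say that the samples came from separate litters or dissections, so p-values measure only the spread between these samples. The 8 genes, the lists and the naming rule (all 8 genes, at most 5 called genes per list, the closest 12 genes by correlation) were chosen with earlier results of these data known. A few listed genes are not reported here. Alternatives changed the pseudocount, filter, scaling, variance model, weights, block and samples. The closest genes without D489V replicate 3 were added after seeing the data. Python 3.11.15 drew the plots.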

Additional observations from a re-analysis of the deposited data

Results flagged for a closer look

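The highest or lowest of 5 samples was called far from its group where its gap to the nearest other sample exceeded 0.71 of the group's range on the log2 scale. Of 24 groups of values (8 genes in 3 groups), 6 held such a sample, where about 1 in 20 is flagged by chance, and all 6 were D489V replicate 3, so they are not separate events. The gap was 0.800 of the range for Mbp, where its log2 value was 12.84 against 10.75 to 11.17 in the rest of the group. It was 0.881 for Pmp22 (13.26 against 11.40 to 11.62), 0.822 for Prx (12.07 against 10.10 to 10.45), 0.725 for Mag (8.46 against 6.46 to 7.01), 0.790 for Mal (10.10 against 7.95 to 8.41) and 0.830 for Cnp (10.24 against 9.11 to 9.31). Sox10 and S100b passed no such limit in any group.

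The changes from control differed between both mutant groups for 5 genes by the direct contrast, in which the shared controls cancel. The limma adjusted p was 0.0406 for Mbp, 0.0493 for Pmp22, 0.0357 for Prx, 0.0152 for Sox10 and 0.00823 for S100b, each lower in knockout. For Mbp, Pmp22, Prx and Sox10 the mean log2 level was below control in knockout and above it in D489V, and neither change passed the threshold alone. The same holds for S100b. The calls of Mbp, Pmp22 and Prx were lost with robust eBayes, with the replicate block and without knockout replicate 3, and without D489V replicate 3 their changes in D489V against control were 0.15, 0.052 and 0.082.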

How the results depend on the processing

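Of 488 values for the 8 genes under the alternatives, 452 kept direction and side of the threshold, 28 lost it, 6 gained it and 2 changed sign (in D489V against control without D489V replicate 3, with ranges without one replicate of -0.15 to 0.35 for Mag and -0.030 to 0.26 for Cnp). All 28 lost were Mbp, Pmp22 and Prx in knockout against D489V, and all 6 gained were Mal there; Sox10 and S100b passed in all 21 alternatives, with limma adjusted p up to 0.0394 and 0.0355. The number of the 8 genes called there, 5 as reported, was 3 without a filter (7.36% of all genes called), 2 with robust eBayes (20.7%) and 2 with the replicate block (14.4%). Without one replicate the number was 2 to 6, where 9.26% to 24.4% of all genes were called. It was 0 in every alternative run against control. Over all genes, 1 was called in knockout against control, 3 with quantile normalization, 16 in one fit of 15 samples and 1 to 7 without one replicate. In D489V against control 9 were called, 19 with pseudocount 5, 4 with a mean of 50 or more, 17 with upper-quartile rescaling (58.8% higher, against 44.4%), 16 with quantile normalization, 21 with robust eBayes, 86 with array weights, 1 in one fit of 15 samples and 2 to 26 without one replicate. In knockout against D489V 3181 were called, 1589 without both doubted libraries and 1398 to 3686 without one replicate. Fewer samples enter the fits without a replicate; the cause of the other shifts was not tested. With the replicate block, 1, 7 and 2208 genes were called in the 3 comparisons, and Mbp, Pmp22 and Prx came to adjusted p of 0.0622, 0.0836 and 0.0593. Deviations of same-numbered samples correlated between -0.21 and 0.24, between -0.40 and 0.39 and between -0.11 and 0.10 in turn, so no pairing by number was taken. The correlation of S100b with the rest was 0.61, and -0.044 without D489V replicate 3 and group means.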

Other observations

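Outside the myelin genes, Cnp and S100b had other neighbours. Without D489V replicate 3, the genes closest to Cnp across 14 samples were Il4ra (r 0.95), Icam1 (0.93) and Lyl1 (0.91), genes known from leukocytes and endothelium, and not myelin genes. With D489V 3 included, the closest gene to Cnp was Cadm4 (0.92), an adhesion molecule of the Schwann cell surface.

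S100b was closest to 3110039I08Rik (r 0.96), Map3k12 (0.96) and Dock6 (0.95) over 15 samples, and to Hoxb4 (0.96), D830026I12Rik (0.96) and Rin2 (0.96) without D489V replicate 3. None of these is in the Schwann lists. Sox10 was closest to Sptbn5 (0.94), Bcas1 (0.92) and Drp2 (0.91) over 15 samples. Without D489V replicate 3, Sox10 was closest to Lgals4 (0.925), Atf5 (0.925) and Mpp4 (0.922), which stood in no list used here.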
